A study of Mus musculus with 43 samples.

Results

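DDX18, a nucleolar helicase of the DEAD-box family, takes part in ribosome production. Its RNA contacts in mouse embryonic stem cells (ESCs) were mapped by the authors with CLIP, in which RNA is purified with the protein and sequenced, and with TAP, a tandem purification that shares most steps with CLIP but leaves out the gel separation. The regions described here are those annotated to introns or to intergenic sequence on mm10, without regions named as ribosomal, small nuclear, small cytoplasmic, signal recognition particle or transfer RNA and without regions whose listed gene name begins with Snora, Snord or Scarna. They numbered 654 of 3195 regions over 2 CLIP and 2 TAP libraries, all from ESCs of the 129S1/SVImJ strain that carried FLAG-Biotin-DDX18 and grew in serum with LIF. No control purification is among the region lists used here, so a region is a place listed by the authors, not a place tested against background. Effects on the host genes were read from RNA-seq of EZH2 KO ESCs and of p53 KO ESCs. Each had 2 control and 2 DDX18 knockdown (KD) libraries in serum with LIF. The authors' selected gene list of the knockdown in CJ9 ESCs, from 2 control and 2 KD libraries, was described without a test. Levels were read from 3 libraries of CJ9 ESCs that received 0 ng/ml actinomycin D. The labels give no clone or passage for the knockout lines.

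Introns and intergenic sequence hold several kinds of RNA source. Many snoRNAs, which guide the chemical modification of ribosomal RNA, are cut out of introns of genes for ribosomal and translation proteins. L1 elements are LINE retrotransposons present in many near-identical copies, and processed pseudogenes are copies of spliced mRNAs inserted back into the genome. Where a sequence exists in several copies, a read can match more than 1 of them. The labels and headers do not say how such reads were placed, so a score at an L1 copy or at a pseudogene cannot be assigned to that copy alone.

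The members were short, most of them covering 1 bin of the 100-base grid on which the regions lie. The bases of 1 locus are shown because they fall within a RefSeq promoter window of the same build. It is a 300-base locus at a CpG island in an intron of Erdr1 on chromosome Y, and 164 of its bases, chrY:90793437-90793600 on the plus strand of GRCm38.p6 (mm10), lie in the window of Gm33272. Capitals mark CpG dinucleotides.
Erdr1 locus: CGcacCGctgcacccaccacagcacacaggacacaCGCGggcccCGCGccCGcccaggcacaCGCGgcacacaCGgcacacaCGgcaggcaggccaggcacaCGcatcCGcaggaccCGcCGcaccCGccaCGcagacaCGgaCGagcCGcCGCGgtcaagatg
These bases had a GC content of 74.4% and held 22 CpG, an observed to expected ratio of 1.02, while the 32851 RefSeq promoter windows had a median GC content of 52.7%. The locus was listed in all 4 libraries, with scores of 21.7 and 15.7 in CLIP and 9.67 and 13.3 in TAP. Erdr1 also had loci on chromosome X, 1 of them in all 4 libraries with 18.7 and 27.5 in CLIP and 12.5 and 10 in TAP. How reads were placed between the 2 chromosomes is not stated.

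Intronic and intergenic regions made up close to 1 region in 5 of every library. The first CLIP library held 180 of 880 regions (20.5%, 95% exact binomial interval 17.8 to 23.3%) and the second 203 of 939 (21.6%, 19.0 to 24.4%). The first TAP library held 115 of 635 (18.1%, 15.2 to 21.3%) and the second 156 of 741 (21.1%, 18.2 to 24.2%). The mean share was 21.0% ± 0.823 (SD, n = 2) in CLIP and 19.6% ± 2.08 (SD, n = 2) in TAP, a difference of 1.46 percentage points (exact permutation test, two-sided, p = 0.667). With 2 libraries against 2 the smallest p possible is 0.333, and the sign of the difference rests on the first TAP library, without which it was -0.016. Intergenic members outnumbered intronic ones in every library, by 108 to 72, 115 to 88, 60 to 55 and 87 to 69.

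Members carried low scores apart from a few. The score is the authors'. Multiplied by the number of bins of the region it is a whole number in 98.7 to 99.2% of regions (tolerance 0.02), so it has the form of a mean count per bin, and it was used only to rank regions within a library. The median member score was 15 and 17 in CLIP and 15 and 13 in TAP, against 25, 23.4, 22.3 and 22 for all other regions. Between 50.4 and 62.2% of members lay under double the lowest score of their library, against 37.5 to 41.2% of the other regions. The median percentile rank of members was below that of the other regions in 4 of 4 libraries, by 14.7 to 22.7 points (mean -18.7, exact sign-flip permutation test, two-sided, p = 0.125, the smallest that 4 libraries allow).

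The size of the gap depended on the kind of region the members were set against. Against regions in exons and at gene ends the members' median rank differed by -0.825 points on average, from -7.44 to 8.03 (exact sign-flip permutation test, p = 1). Against the named small RNA and rRNA regions it was lower by 30.9 to 45.8 points in all 4 libraries (mean -39.3, exact sign-flip permutation test, p = 0.125). Members held 1.86, 2.53, 3.23 and 3.69% of the summed score of the 2 CLIP and the 2 TAP libraries in that order.

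**Figure D1:**
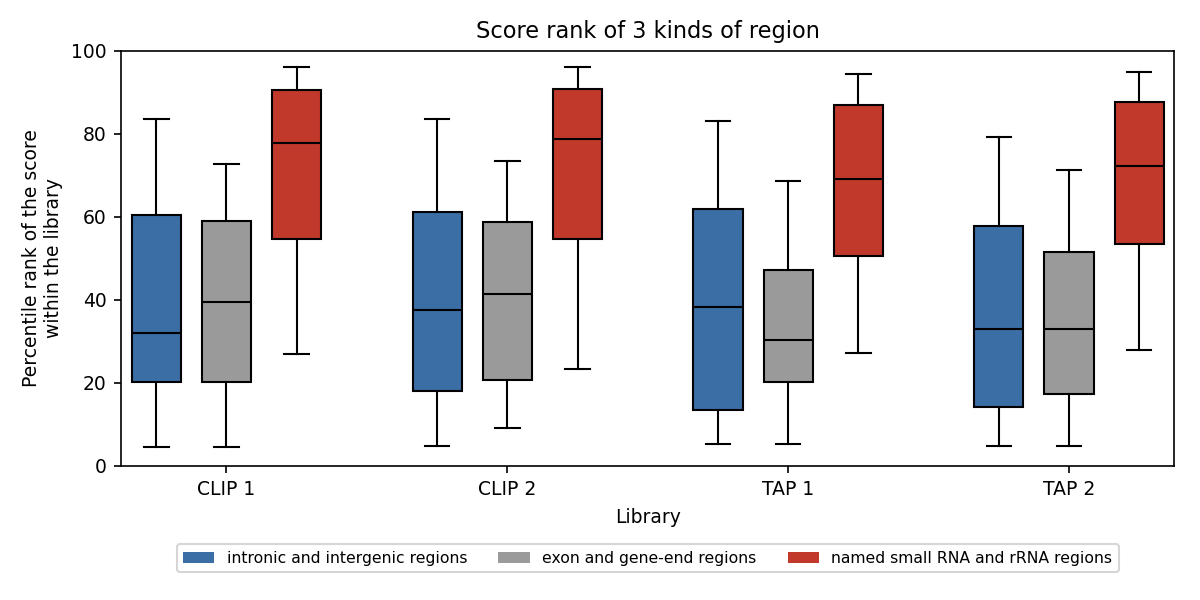
Percentile rank of the authors' score within each library (y axis) for 3 kinds of region; boxes span the quartiles with the median as a line, and whiskers run from the 10th to the 90th percentile. The median of intronic and intergenic regions lies from 32 to 38.3 in the 4 libraries, that of the named small RNA and rRNA regions from 69.2 to 78.7.

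A handful of loci held nearly all of the members' score. The 4 highest members of each library held 84.0 and 87.9% of it in CLIP and 92.3 and 92.6% in TAP, and 14, 14, 7 and 8 members reached a score of 1000. The same loci led in both assays. To follow them across libraries, members that overlapped by at least 1 base on the same strand were merged, which gave 288 loci, 160 intergenic and 128 intronic.

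The top locus in 4 of 4 libraries was an L1Md_T element at chr13:9834301-9834500 on the minus strand, in intergenic sequence nearest to Zmynd11. Its scores were 68180 and 128618 in CLIP and 82196 and 94202.5 in TAP. L1Md_T is a mouse L1 subfamily with copies that can still move. Second came a locus with no named repeat at chrX:87238301-87238400 on the plus strand, in intron 5 of 10 of Il1rapl1, a synaptic adhesion gene of neurons. Its scores were 66607 and 73168 in CLIP and 34616 and 45232 in TAP. The locus runs antisense to Il1rapl1, which was listed at 0 FPKM in all 3 ESC libraries. The third was an L1Md_F3 element at chr2:90395101-90395200 on the minus strand, with 16789 and 18917 in CLIP and 17120 and 21129 in TAP.

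Below these 3 the L1 copies continued. An L1Md_F2 element in an intron of Dnah7b, an axonemal dynein heavy chain, at chr1:46075901-46076200 on the minus strand had scores of 15749 and 16300 in CLIP and 4356 and 3298 in TAP. An L1_Mur3 element nearest to Slc6a14 at chrX:21680501-21680600 had 6616 and 6803 in CLIP and 1463 and 1455 in TAP. An L1Md_F2 element at chrX:33416401-33416600 had 3083 and 3269 in CLIP and 1269 and 1164 in TAP. Another L1Md_F2 element, antisense in an intron of Cntnap5b, a neurexin-like cell adhesion gene that was also listed at 0 FPKM in all 3 ESC libraries, had 2047 and 2329 in CLIP and 752 and 761 in TAP. In each of these 4 every CLIP score was above every TAP score, while the top locus overlapped between assays. The libraries were not scaled to each other, so this order of CLIP over TAP is not a test of binding.

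Of the 10 loci ranked highest among those in all 4 libraries, 6 were L1 copies. The others were the Il1rapl1 locus, a GC-rich stretch at chr4:122455201-122455400 (1962 and 2226 in CLIP, 1024 and 1369 in TAP), an unnamed intergenic locus at chr4:122122801-122123000 (1788 and 2073 in CLIP, 998 and 1286 in TAP) and a sense locus in the last intron of the lncRNA gene 4933404O12Rik (1990 and 2199 in CLIP, 714 and 726 in TAP). The 2 loci on chromosome 4 lie on the same strand and had similar scores in each library.

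**Figure D2:**
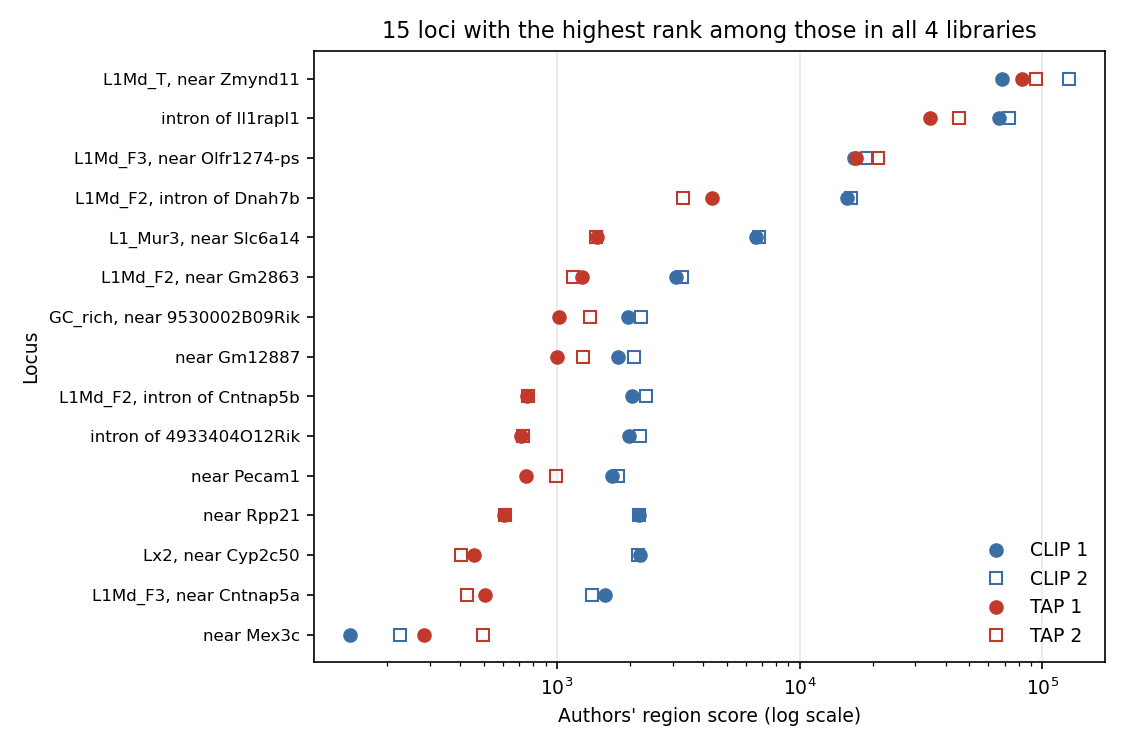
Authors' region score on a log axis for the 15 loci with the highest mean rank among those found in all 4 libraries, with 1 symbol per library. The L1Md_T locus near Zmynd11 lies highest, from 68180 to 128618, and from the fourth locus to the fourteenth both CLIP scores lie above both TAP scores.

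Repeats were few by number and large by score. A mean of 14.5% ± 2.75 (SD, n = 4) of the members of a library carried a named repeat, and 30 of 288 loci (10.4%) did. LINE elements numbered 12, 11, 10 and 11 members in the 2 CLIP and 2 TAP libraries, or 6.67, 5.42, 8.70 and 7.05% of them, and 11, 11, 10 and 11 of these were L1. LINE loci held 70.6 and 77.4% of the members' summed score in CLIP and 81.5 and 79.3% in TAP. Over the 15 LINE loci 9 were in all 4 libraries, and their median mean rank was at the 86.2nd percentile. The lowest LINE locus, an L1Md_T copy near Dpp10 listed in the second CLIP library alone with a score of 12, was at the 12.2nd, so the subfamily of the top locus also held a locus near the bottom.

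SINE elements, short retrotransposons that depend on L1 proteins to move, were at 8 loci, 4 of them in all libraries. The highest by mean percentile rank was a B4A element antisense in an intron of Iqcg, with scores of 126 and 118 in CLIP and 83 and 107 in TAP. Next by rank was a B1_Mus2 element with 204 and 156 in CLIP, above the B4A locus, and 36 and 44 in TAP. The highest single SINE score was 331 in the first TAP library, at a PB1D9 element in an intron of Cask that had 26 in the second CLIP and 29 in the second TAP library. LTR, simple repeat, low complexity and DNA transposon classes had 2, 2, 2 and 1 loci. The DNA transposon, FordPrefect, was in all 4 libraries with scores of 34, 41.5, 58.5 and 50. The top simple repeat, a (CA)n stretch in an intron of Sfi1, was in 3 libraries with 32 and 35 in CLIP and 9 in the first TAP library. The LTR locus of higher rank, RMER13A1 in an intron of Clasp2, was in the first TAP library alone with a score of 13. No member was a satellite, and 0 of 180 members of the first CLIP library allows a share of up to 1.67%. Exon and gene-end regions carry no repeat name at all in these lists, since the annotation names an exon before a repeat, so the repeat shares of members were not compared with theirs.

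Most loci lay on pseudogenes or small RNA genes that the annotation column of the lists does not name. In RefSeq GRCm38.p6, 147 of the 288 loci (51.0%) overlapped a pseudogene and 48 (16.7%) a small RNA gene by at least 1 base. With at least 50% of the locus required, an alternative chosen after seeing the data, small RNA genes were at 28 loci (9.72%) and pseudogenes at 144. A further 52 (18.1%) overlapped a protein-coding gene with neither of these, 8 (2.78%) a lncRNA gene, and 33 (11.5%) no RefSeq gene. Strand was not used for these overlaps, and a locus was put in the first of these classes it met. At the pseudogene Gm9512, for instance, a plus-strand locus and a minus-strand locus both counted. For scale, pseudogenes span 1.18% and small RNA genes 0.0875% of the chromosomes up to the last annotated gene. The same classes over exon and gene-end loci were 17 and 50 of 550, but those regions were chosen for lying in exons, so no test was made.

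**Figure D3:**
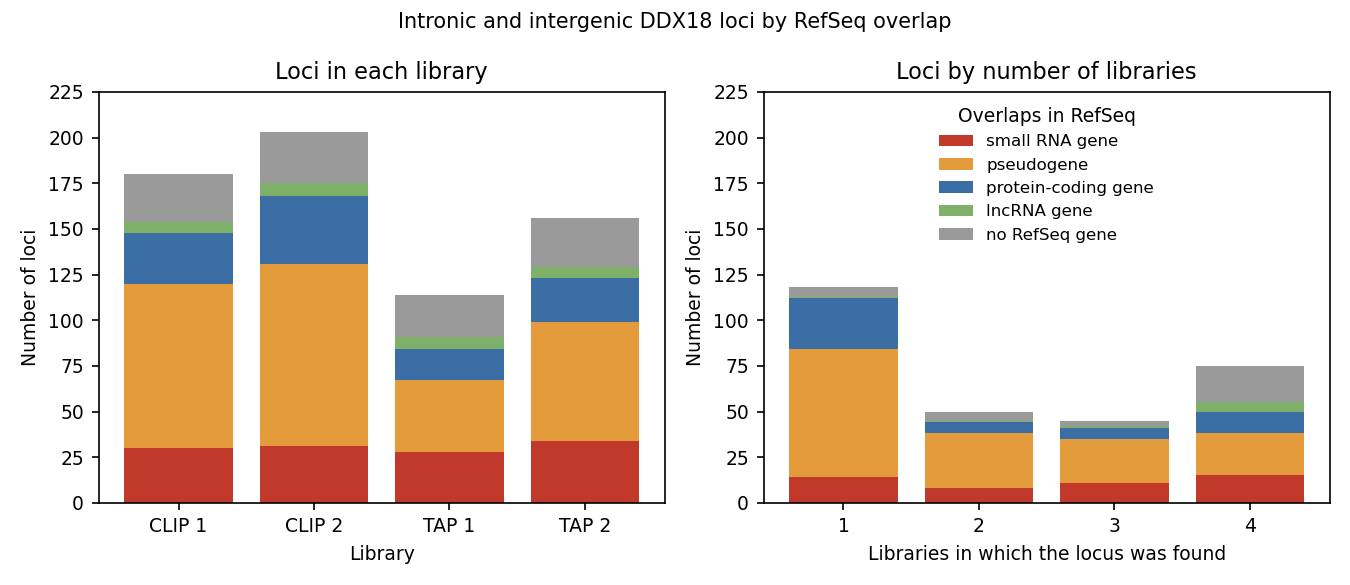
Number of loci in each library (left) and by the number of libraries in which a locus was found (right), stacked by the RefSeq GRCm38.p6 gene class overlapped. Pseudogenes are the tallest segment in each library and make up 70 of the 118 loci found in 1 library against 23 of the 75 found in all 4.

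Pseudogene loci were weak and poorly shared. Their median mean rank was at the 21.4th percentile, 23 of 147 (15.6%) were in all 4 libraries and 70 (47.6%) in 1. The share in all 4 was the lowest of the RefSeq classes. The share in 1 was higher for loci on protein-coding genes, at 28 of 52 (53.8%), and lower in the other classes. Pseudogene loci held 1.23 and 0.947% of the members' summed score in CLIP and 0.521 and 0.747% in TAP. The highest of them, Gm51950, had scores of 1680 and 1787 in CLIP and 745 and 993 in TAP. The class was mixed in size, with Gm51950 at 161 bases, LOC115489593 at 113 and 5830417I10Rik at 52315. Which of these pseudogenes are copies of spliced mRNAs was not tested. The 147 loci lay on 115 pseudogenes, and 112 were intergenic. The symbols of 49 name a parent gene, and for 38 of these it is a ribosomal protein gene. Tpt1-ps3 had scores of 44 and 40 in CLIP and 11 and 15 in TAP. Rps6-ps4 had 27 and 39 in CLIP and 12 and 9 in TAP. Eef1a1-ps1, a copy of the gene of a translation elongation factor, had 15.8 and 12.6 in CLIP and 8.00 and 14 in TAP.

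All parent genes that could be matched were strongly expressed in ESCs. Of 29 parents named in the symbols, 27 were in the table, and their means over 3 libraries ran from 150 FPKM for Oaz1 to 3243 for Eef1a1, with a median of 723. FPKM scales a gene's reads to its transcript length and to the size of the library. By comparison, 10.5% of the 46683 genes of the table reached 10 FPKM, and the median of the 12150 genes at 1 FPKM or more was 7.07. Only pseudogenes with a parent in their symbol entered this description, and whether reads of these regions came from the parent mRNAs was not tested.

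Pseudogene regions took a larger share of members in CLIP than in TAP. The share was 50 and 49.3% in CLIP and 34.8 and 41.7% in TAP, a difference of 11.4 percentage points in which the assays did not overlap (exact permutation test, two-sided, p = 0.333, the smallest possible). Small RNA genes went the other way, with 16.7 and 15.3% in CLIP and 24.3 and 21.8% in TAP, a difference of -7.10 points without overlap (exact permutation test, p = 0.333). Neither difference can pass a threshold with these libraries. Among the 111 loci found only in CLIP libraries 70 lay on pseudogenes, among the 36 found only in TAP libraries 17 did, and among the 141 found with both assays 60 did.

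The small RNA genes beneath 48 loci were mainly snoRNAs. RefSeq names 39 snoRNA genes, 2 guide RNA genes, 3 rRNA genes, 3 snRNA genes and 1 Y RNA gene, and 41 of the 48 loci were intronic. The lists name the intron or the intergenic sequence at these loci, not the small RNA. Of the 48, 15 (31.3%) were in all 4 libraries, and their scores were low. The highest by mean percentile rank was at Gm25835, a snoRNA gene in an intron of Eif4a1, the helicase of translation initiation, with scores of 112 and 119 in CLIP and 81.5 and 119 in TAP. Snord21, in an intron of the ribosomal protein gene Rpl5, had 114 and 161 in CLIP and 59 and 120 in TAP, higher scores than at Gm25835 in 3 of 4 libraries.

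Further snoRNA loci in all 4 libraries lay in introns of Slc25a3, Odc1, Phb2, Nap1l1, Ptcd3, Snhg1, Rack1, Rpl7a and Ranbp1 and in a second intron of Eif4a1. In Snhg1, a long noncoding snoRNA host, scores were 14 and 25 in CLIP and 34 and 38 in TAP. In Rack1, which encodes a ribosomal scaffold protein, they were 13 and 21 in CLIP and 48 and 45 in TAP, so at both loci TAP lay above CLIP. Snord14c and Snord14d, in introns of the chaperone gene Hspa8, were in CLIP alone, with 38 and 55 at the first and 51 and 27.7 at the second. The 5S rRNA gene n-R5s136 was in all 4 libraries with 20 and 23 in CLIP and 32 and 75 in TAP. Of 55 genes listed as snoRNA hosts, 15 had an intronic member. Regions whose listed gene name was that of a snoRNA were left out beforehand, so 15 does not count hosts with a region of any kind.

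Sense and antisense loci fell apart by class. Both strands were known for 99 intronic loci, and 80 of them (80.8%) lay on the strand of the host. All 33 on small RNA genes were sense. Of those on pseudogenes 9 were sense and 14 antisense, and of the remaining 43, 38 were sense. A pseudogene inside an intron has an orientation of its own, which the RefSeq table used here does not give.

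A minority of the loci recurred in every library. Of the 288 loci 75 (26.0%) were in 4 libraries, 45 in 3, 50 in 2 and 118 (41.0%) in 1. Shared loci ranked higher, with a median mean rank at the 54.9th, 30.7th, 23.1st and 13.0th percentile for 4, 3, 2 and 1 libraries. The CLIP libraries shared 131 loci, 72.8% of the first and 64.5% of the second, and scores at these had a Spearman rho of 0.887 across loci. The TAP libraries shared 93, 81.6% of the first and 59.6% of the second, with a rho of 0.839. Between assays 92 to 115 loci were shared, with a rho of 0.741 to 0.796. Loci are not independent replicates, and the few very high ones enter every pair.

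Members were shared less than the named small RNAs. Of the loci of a library, 41.7 and 36.9% in CLIP and 65.8 and 48.1% in TAP were in all 4. The difference from exon and gene-end loci averaged -8.27 percentage points, from -18.5 to 0.313 (exact sign-flip permutation test, p = 0.25). The difference from named small RNA and rRNA loci averaged -40.9 points and was negative in 4 of 4 libraries (exact sign-flip permutation test, p = 0.125, the smallest possible). Of loci absent from a library, 6 or 7 had a region of another kind in their place. Without loci on small RNA genes and pseudogenes, an alternative chosen after seeing the data, 37 of 93 (39.8%) were in all 4 libraries, and 20 of the 33 loci on no RefSeq gene were (60.6%).

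Intronic members lay in 103 matched host genes, most of them active in ESCs. The cells carried the ESC markers Pou5f1 at 421 ± 35.6 FPKM (SD, n = 3) and Nanog at 97.5 ± 7.80, while of 6 fibroblast markers Postn, Col1a1, Col1a2 and Col3a1 ran from 0 to 0.401 FPKM, Thy1 was at 16.3 and Fn1 at 137. Of 98 host genes in the table, 81 (82.7%) reached 1 FPKM, against 26.0% of all genes, and 8 were listed at 0. The median was 30.4 FPKM over the hosts, 86.1 over the 31 hosts of a small RNA locus and 14.2 over the other 67.

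Several hosts carried more than 1 locus, 16 in all. Myh9, which encodes the heavy chain of nonmuscle myosin, had 5 sense loci, 1 of them in all 4 libraries with scores of 20.8 and 21.5 in CLIP and 12 and 25 in TAP. Its level in ESCs was 67.6 ± 8.78 FPKM (SD, n = 3). Sptan1, which encodes alpha spectrin, had 3 sense loci, the most shared of them at 17 and 26 in CLIP and 11 and 14 in TAP. Eif4a1 and Taf1d, a subunit of the RNA polymerase I factor SL1, had 3 loci each, all on snoRNA genes.

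**Figure D4:**
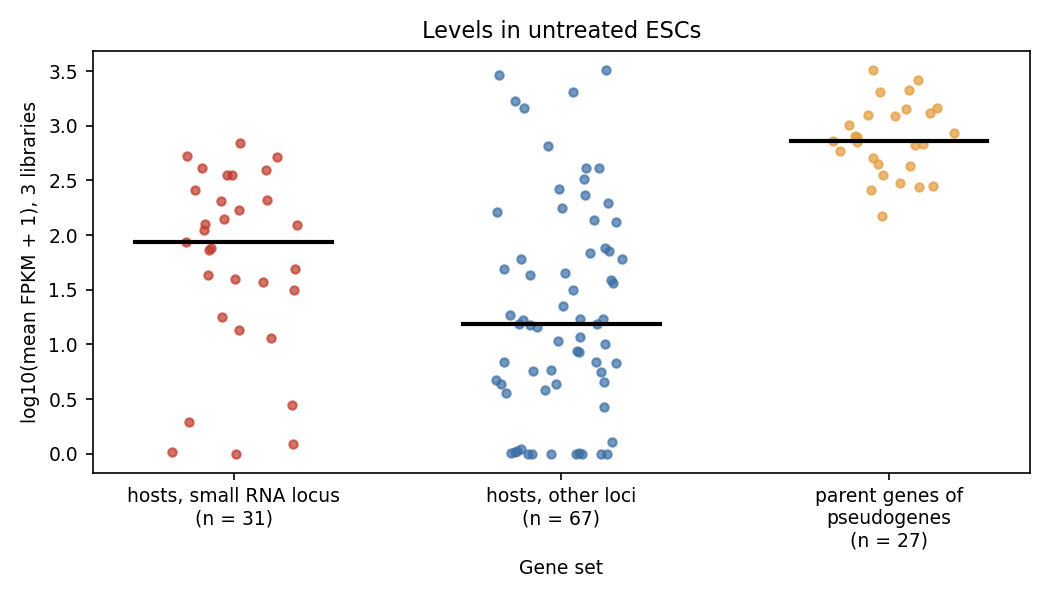
Levels in untreated CJ9 ESCs as log10 of mean FPKM + 1 over 3 libraries, for host genes with a small RNA locus, the other host genes and the parent genes named in pseudogene symbols; points are genes and lines are medians. The medians stand at 86.1, 14.2 and 723 FPKM, and the lowest parent gene is at 150 FPKM.

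The host genes were read in the knockdown libraries. Ddx18 itself went from 82.5 and 89.4 FPKM to 15.5 and 17.5 in EZH2 KO cells and from 36.9 and 49.7 to 3.08 and 3.86 in p53 KO cells. In EZH2 KO cells 11 of 81 host genes tested passed an adjusted p of 0.05 (limma on log2(FPKM + 1), Benjamini-Hochberg over 11773 genes), 8 higher and 3 lower, where 8.49% of all genes passed, 6.3% higher and 2.18% lower. The balance turned with the processing, to 7 higher and 12 lower with rescaled libraries, where 9.57% of all genes passed. Among 67 hosts at 5 FPKM or more it was 7 and 7, where 15.4% of all genes passed. At an unadjusted p under 0.05 there were 26 hosts (32.1%), against 27.4% of all genes. The median log2 change of the hosts was -0.04, against 0.09 for all genes. In p53 KO cells 3 of 81 passed, all higher, where 3.27% of all genes did and 2.63% were higher. At an unadjusted limma p under 0.05 there were 17 hosts (21.0%) in p53 KO cells, against 31.2% of all genes. The hosts' median there was 0.17 against 0.34 for all genes, and with the libraries rescaled to a common median it was -0.23 against 0.00. Leaving out 1 library leaves 1 residual degree of freedom, so those fits cannot decide whether the calls hold and were read for direction alone. The called hosts kept their direction in 56 of 56 such fits.

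The host genes that rose in EZH2 KO cells had their smallest adjusted p at Eng, a TGF-beta co-receptor, with 45.4 and 47.3 FPKM in controls and 90.9 and 99.4 after knockdown (log2 change 1.02 ± 0.099 SE, limma adjusted p = 0.00655). Myh9 went from 85.8 and 87.5 to 156 and 171 FPKM (0.91 ± 0.093 SE, limma adjusted p = 0.00737). Sptan1 went from 70.8 and 68.4 to 113 and 107 FPKM (0.66 ± 0.092 SE, limma adjusted p = 0.0148). Myo18a, an unconventional myosin, Dync1h1, the dynein heavy chain, and Sfi1 rose by 0.64, 0.62 and 1.23 on the log2 scale. The last passed from 0.970 and 1.41 to 5.18 and 3.25 FPKM. The other 2 rose by 0.60 each. Control and knockdown values did not overlap in any of these genes. The loci in Eng and Myo18a were each listed in 1 library, that in Dync1h1 in 2 and that in Sfi1, on a pseudogene, in 3. Myh9 and Sptan1 each had a locus in all 4.

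Of the 3 host genes that fell in EZH2 KO cells, Tubb5, a beta tubulin, fell the most, from 858 and 837 to 576 and 592 FPKM (log2 change -0.54 ± 0.083 SE, limma adjusted p = 0.0190). Rpl7a went from 3157 and 2657 to 2021 and 2039 FPKM (-0.51 ± 0.11 SE, limma adjusted p = 0.0451). Ppan, a ribosome biogenesis gene, went from 184 and 178 to 134 and 135 FPKM (-0.42 ± 0.085 SE, limma adjusted p = 0.0366). With the replicate number as a block all 3 of these calls and that of Myo18a were lost and 7 of 81 remained past the threshold, all higher. The locus in Tubb5 was listed in 1 library, that in Ppan in 3 and that in Rpl7a in all 4.

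In p53 KO cells the 3 calls were Chd3, a chromatin remodeller of the NuRD family, Snhg17, a noncoding snoRNA host, and Luc7l, a splicing factor. Chd3 went from 6.84 and 6.19 to 30.5 and 26.4 FPKM (log2 change 1.97 ± 0.22 SE, limma adjusted p = 0.0481). Snhg17 went from 12.4 and 13.3 to 29.8 and 39.2 FPKM (1.34 ± 0.23 SE, limma adjusted p = 0.0487). Luc7l went from 21.6 and 23.2 to 50.4 and 51 FPKM (1.15 ± 0.19 SE, limma adjusted p = 0.0481). The Snhg17 locus, listed in all 4 libraries, and the 2 Luc7l loci, listed in at most 2, lay on pseudogenes. The Chd3 locus was listed in 1 library. All 3 calls sit just under the threshold and were lost with a pseudocount of 0.1 and with the replicate block, where 0 hosts and 0% of all genes passed. With rescaled libraries 2 of 81 hosts passed, 1 higher and 1 lower, where 1.44% of all genes passed. The higher one was Chd3, at a log2 change of 1.59. Snhg17 at 0.95 and Luc7l at 0.75 did not pass.

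The effect differed between the genotypes in 1 of 80 hosts tested for it, Chd3, where 1.95% of all genes passed. In the authors' deposited table of the knockdown in CJ9 mES cells, a selected list of 4769 genes, 53 of the 103 hosts were listed, 27 of them lower after knockdown (50.9%), where 43.4% of the listed genes were lower. Among genes at 1 FPKM or more in untreated ESCs, 53 of 81 hosts (65.4%) were in the authors' deposited table, where 34.2% of all 12150 such genes were. The hosts were also the more strongly expressed genes, as their median level given above shows, and the part of level in this share was not tested. The list was chosen on these libraries and was not tested.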

How the data were processed

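Regions of the 2 CLIP and 2 TAP libraries carry a score made by the authors, and neither its caller nor its filter is stated. Per the file headers, annotatePeaks.pl assigned their annotation, on mm10. Expression values are FPKM as deposited by the authors; TopHat2 2.0.11 and CASAVA are named in the submitters' processing notes. Depth of the region libraries is not known, and intervals cover counting error only. No per-sample columns outside the label map were used.

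Members, gene lists and tests were chosen with earlier results of these data known; the RefSeq classes and the locus shown as sequence were chosen after seeing the data. Loci are members merged on 1 strand when they overlap by at least 1 base; named loci are up to 10 in the most libraries by mean percentile rank, each library's highest and each repeat class's highest. Named hosts are those with the most loci and up to 6 called each way. The share of members was compared with exact tests over libraries in Python 3.11.15 with SciPy 1.17.1. Knockdown was fitted with limma 3.58.1 (R 4.3.3) to log2(FPKM + 1) values with its trended prior variance, for genes at 1 FPKM or more in at least 2 libraries, and tested on simulated data. Nothing says whether replicates are separate cultures, so p-values may reflect technical spread only. The shared replicate numbers do not pair the libraries by the labels; the planned motif and GC analysis of the regions was not made, as no genome was used.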

Additional observations from a re-analysis of the deposited data

Results flagged for a closer look

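The knockdown effect on Chd3, a host of 1 intronic locus on a guide RNA gene listed in the first CLIP library with a score of 16, differed between the genotypes. In EZH2 KO cells Chd3 was at 2.89 and 2.58 FPKM in controls and 3.36 and 3.97 after knockdown (log2 change 0.32 ± 0.20 SE, limma adjusted p = 0.356). In p53 KO cells it went from 6.84 and 6.19 to 30.5 and 26.4 FPKM (1.97 ± 0.22 SE, limma adjusted p = 0.0481). The difference of the 2 effects, EZH2 KO minus p53 KO, was -1.65 ± 0.26 SE (limma, adjusted p = 0.0371 over 10866 genes), and it was found among 80 host genes. Both knockdown values lay above both control values in each genotype. The fit of the difference did not rescale the libraries, and the median log2 change of all genes was 0.09 in EZH2 KO and 0.34 in p53 KO cells. Each genotype had its own set of control and knockdown libraries, so genotype cannot be told apart from other differences between the 2 sets.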

How the results depend on the processing

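By bases in place of regions the share of members was 17.7% in CLIP and 14.7% in TAP, and among regions above their library's median score it was 14.8 and 13.6%. Leaving out 1 library gave 20.5 to 21.6% in CLIP, 18.1 to 21.1% in TAP and a difference of -0.016 to 2.93 points, whose sign changed without the first TAP library. Named repeats were at 10.4% of loci and at 30.7% of members above the median score. Loci in all 4 libraries numbered 30 of 86 above the median score, 37 of 93 without loci on small RNA genes and pseudogenes, and 65 to 85 with overlap of 50% of both regions, either strand or any region as partner. With 1 library left out, 81 to 100 loci were in all 3 that remained. Loci on small RNA genes fell from 48 to 28 when at least 50% of the bases of the locus had to overlap, and those on pseudogenes went from 147 to 144. The members' mean rank difference was -20.1 to -12.4 points with 1 library left out or with the score taken per base. Against exon and gene-end regions it was -0.825, with 8.03 in the first TAP library, so no lower rank was shown there.

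Of the 81 host genes tested in EZH2 KO cells, 11 calls became 19 with rescaled libraries (7 higher and 12 lower, against 8 and 3). With that setting 9.57% of all genes passed. Without a filter on low values 0 of 88 hosts passed, where 0.277% of all genes did. In p53 KO cells 3 calls became 9 of 68 hosts at 5 FPKM or more, where 12.1% of all genes passed. With a pseudocount of 0.1 and without a filter 0 hosts and 0% of all genes passed. Leaving out a library leaves 1 residual degree of freedom and assumes that the lone sample varies like the other group. The replicate block gave 7 and 0, where 7.63 and 0% of all genes passed. Same-numbered libraries had deviations correlated at -0.049 in EZH2 KO and -0.256 in p53 KO cells, so they did not deviate in the same direction. The crossed pairing, added after seeing the data, gave 23 and 10 calls among the hosts, where 13.1 and 9.87% of all genes passed. Whether libraries of unlike number share a batch was not tested. The 14 called genes kept their direction in every setting in which they were tested, which leaves out 1 gene, Sfi1, at 5 FPKM or more. The cause of these changes was not tested.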
